A study of Homo sapiens with 2 samples.

Results

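The minichromosome maintenance (MCM) genes MCM2, MCM3, MCM4, MCM5, MCM6, MCM7, MCM8 and MCM10 were taken by name from PAR-CLIP tables of ZC3H7A and ZC3H7B, related RNA-binding proteins with CCCH zinc fingers. All 8 had called clusters in both libraries, out of 8204 genes with clusters for ZC3H7A, 9159 for ZC3H7B and 7218 for both. They were chosen among genes with clusters, so their presence is not a result. PAR-CLIP (photoactivatable-ribonucleoside-enhanced crosslinking and immunoprecipitation) feeds cells 4-thiouridine, crosslinks protein to RNA with ultraviolet light and reads the crosslinks as T-to-C conversions. Overlapping reads are grouped into clusters. The cells were HEK293, a line of human embryonic kidney origin, and each library came from cells that overexpressed 1 Flag/HA-tagged protein, Flag/HA-ZC3H7A or Flag/HA-ZC3H7B. Both cell populations had received doxycycline at 1 µg/mL for 24 h to induce the tagged protein and 4-thiouridine at 100 µM for 16 h before irradiation at 365 nm. Each protein had 1 library, and no control was analysed here, so replicate error is unknown, the proteins were not compared by a test, and the level of each messenger RNA in the cells was not measured here. Whether a cell population was 1 clone is not given in the sources used here.

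MCM2 to MCM7 are the subunits of a ring that is loaded onto replication origins before S phase by the origin recognition complex with CDC6 and CDT1. Joined by CDC45 and the GINS complex, the ring becomes the helicase that unwinds DNA at the fork. MCM8 is related to the ring subunits and works with MCM9 in homologous recombination. MCM10 shares the name but has no helicase domain of this kind. It binds DNA and the replication fork and helps to activate the helicase.

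The ZC3H7A library held 3779662 reads on genes, made of 300342 distinct reads, in 51808 clusters. The ZC3H7B library held 2409465 reads, made of 1212989 distinct reads, in 99805 clusters. Each distinct read was thus counted 12.6 times on average in the former and 1.99 times in the latter. The transcript of each tagged protein had more reads in its own library, with 82704 against 158 reads for ZC3H7A and 3768 against 1362 for ZC3H7B. Intervals below are exact 95% intervals for counting error only. Copies of a molecule made by PCR were counted in read sums, so the intervals on these are narrower than they should be. Intervals for mean reads per cluster also take the number of clusters as fixed and leave out its counting error, as do the calls made from them. Values given for ZC3H7A or for ZC3H7B are those of its library.

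Together the MCM genes took 8201 reads of the ZC3H7A library, or 0.217% (0.212 to 0.222%), and 4135 of the ZC3H7B library, or 0.172% (0.166 to 0.177%). Their reads were made of 675 distinct reads in 97 clusters for ZC3H7A and of 2096 distinct reads in 144 clusters for ZC3H7B. Read sums are not divided by transcript length, so their order is that of recovered reads and not of binding per length. In the ZC3H7A library the 8 genes ranged from 132 reads on MCM5 to 3034 on MCM6. In the ZC3H7B library they ranged from 10 reads on MCM5 to 988 on MCM4. The median gene had 136 and 82 reads. MCM5 had the fewest reads of the 8 and MCM8 the second fewest in both libraries.

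**Figure D1:**
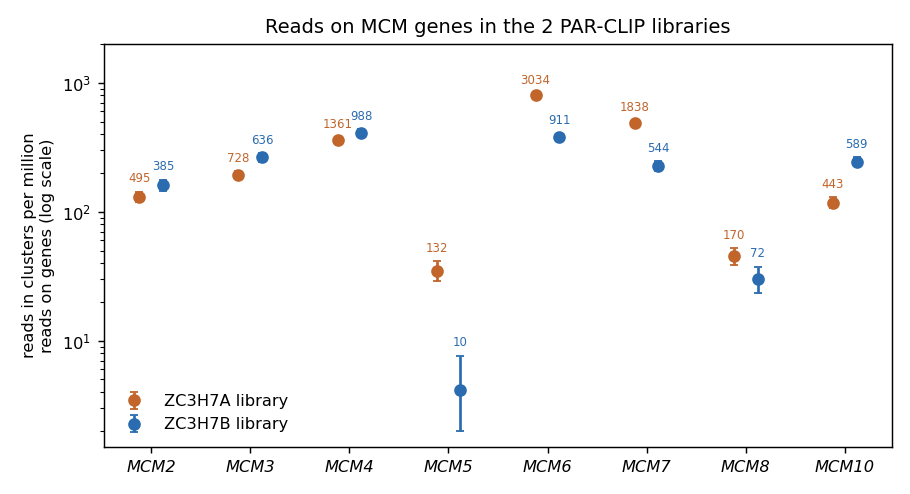
Reads in clusters on each MCM gene, as RPM of the reads on genes (vertical axis, log scale), for ZC3H7A (orange) and ZC3H7B (blue). Points are 1 library each, bars are exact 95% intervals for counting error, and the numbers beside them are the read sums. MCM6 and MCM7 stood higher for ZC3H7A, MCM5 had 132 and 10 reads, and MCM2, MCM3, MCM4 and MCM10 stood higher for ZC3H7B on this scale.

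Between the libraries the ring subunits did not move as a block. By reads MCM2, MCM3 and MCM4 lay close to the median gene, and MCM5, MCM6 and MCM7 lay towards the ZC3H7A library. Values below are log2 ratios of reads, ZC3H7B over ZC3H7A, scaled to give 0 for the median of 7168 genes whose reads in both libraries sum to 20 or more. A gene was called higher in a library where its whole interval lay beyond 2-fold. By this rule 3 of the 8 MCM genes were called higher for ZC3H7A, where 18.0% of all genes compared were called, and 0 of 8 for ZC3H7B, where 18.2% were called. The median of the 8 was -0.36, and the middle of all genes compared ran from -1.05 to 1.03 between its quartiles. Without MCM5 the median was 0.03.

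MCM2, a subunit that also binds histones, had 495 reads in 13 clusters for ZC3H7A and 385 reads in 16 clusters for ZC3H7B. Its log2 ratio was 0.13 (-0.07 to 0.33). MCM3 had 728 reads in 14 clusters and 636 reads in 22 clusters, a log2 ratio of 0.30 (0.14 to 0.45). MCM4 had 1361 reads in 14 clusters and 988 reads in 31 clusters, a log2 ratio of 0.03 (-0.09 to 0.15). All 3 had more clusters for ZC3H7B, as the median gene did, and none was called in either direction. By mean reads per cluster MCM2 stood at 0.81 (0.61 to 1.00) and MCM3 at 0.62 (0.46 to 0.78), and by clusters at -0.63 (-1.78 to 0.55) and -0.27 (-1.31 to 0.81).

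MCM6 carried more reads than any other member for ZC3H7A. It held 3034 reads in 18 clusters there, rank 188 of 8204 genes, and 911 reads in 23 clusters for ZC3H7B, rank 598 of 9159. Its log2 ratio was -1.24 (-1.35 to -1.14), which is 2.37-fold higher for ZC3H7A. The reads were made of 197 and 433 distinct reads, and the ratio of these was -0.92 (-1.17 to -0.67), no longer beyond 2-fold with its whole interval. MCM6 averaged 169 reads per cluster for ZC3H7A against a median over its clusters of 82, so its clusters were unequally filled. In the ZC3H7B library these values were 39.6 and 22.

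MCM7 had 1838 reads in 22 clusters for ZC3H7A and 544 reads in 18 clusters for ZC3H7B. It was called higher for ZC3H7A by reads, at -1.26 (-1.40 to -1.12), and by distinct reads, at -1.48 (-1.74 to -1.21), from 194 and 290 distinct reads. Mean reads per cluster were 83.5 and 30.2, which is what the median gene showed between the libraries, so by this count its log2 ratio was 0.00 (-0.14 to 0.14). By number of clusters, again relative to the median gene, its log2 ratio was -1.22 (-2.20 to -0.25).

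MCM5 had the lowest ratio of the 8, on few reads. It had 132 reads in 4 clusters for ZC3H7A, made of 13 distinct reads, and 10 reads in 2 clusters for ZC3H7B, made of 7 distinct reads. The log2 ratio was -3.23 (-4.32 to -2.31) by reads and -2.95 (-4.51 to -1.52) by distinct reads, and 3.18% of all genes compared had a lower ratio by reads. No listed gene had fewer than 5 reads for ZC3H7A or 4 for ZC3H7B, and MCM5 ranked 7954 of 9159 genes for ZC3H7B. Transcript level was not measured, and fewer MCM5 messenger RNAs and less binding per messenger RNA cannot be told apart.

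By reads the 2 genes outside the ring lay on opposite sides of the median gene. MCM8, the homologous recombination helicase subunit, had 170 reads in 4 clusters for ZC3H7A and 72 reads in 8 clusters for ZC3H7B, a log2 ratio of -0.75 (-1.16 to -0.34). The ratio of its distinct reads was -0.54 (-1.45 to 0.45) and that of its clusters 0.07 (-1.83 to 2.26), and both intervals include 0. MCM10, the helicase activator, had 443 reads in 8 clusters and 589 reads in 24 clusters. Its log2 ratio was the highest of the 8, at 0.90 (0.72 to 1.08) by reads and 1.28 (0.75 to 1.86) by distinct reads (31 and 313), and neither interval lay wholly beyond 2-fold.

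**Figure D2:**
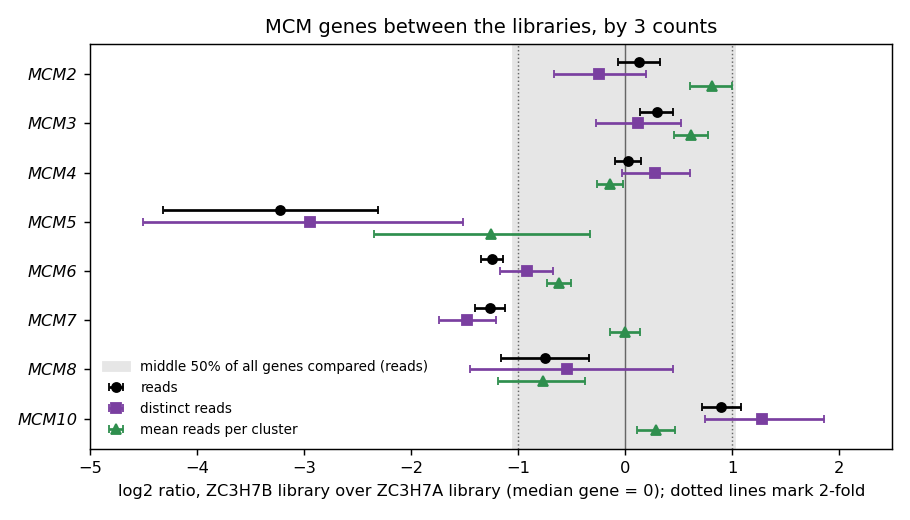
Log2 ratio of the ZC3H7B library over the ZC3H7A library (horizontal axis, median gene at 0) for each MCM gene, by reads (black circles), distinct reads (purple squares) and mean reads per cluster (green triangles), with exact 95% intervals for counting error. By mean reads per cluster the intervals take the number of clusters as fixed. The grey band holds the middle 50% of genes by reads and dotted lines mark 2-fold. MCM5, MCM6 and MCM7 lay beyond the lower line by reads, and by mean reads per cluster no MCM gene had its whole interval beyond a line.

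The calls depended on which count was compared. With distinct reads 2 of 8 MCM genes, MCM5 and MCM7, were called higher for ZC3H7A, beside 10.1% of all genes, and 0 of 8 for ZC3H7B, beside 7.28%. With mean reads per cluster 0 of 8 were called in either direction, beside 4.65% of all genes higher for ZC3H7A and 6.18% higher for ZC3H7B. With clusters 0 of 8 were called, beside 0.223% and 0.321%. Scaled to library totals, which shifts all ratios by 0.16, only MCM5 kept its whole interval beyond 2-fold by reads, and MCM6 and MCM7 stood at -1.09 (-1.19 to -0.98) and -1.11 (-1.25 to -0.97). With totals that leave out the tagged genes MCM5 and MCM6 did.

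Clusters on MCM genes lay mostly in coding sequence in both libraries. Coding sequence held 70 of 97 MCM clusters for ZC3H7A, or 72.2% (62.1 to 80.8%), and 89 of 144 for ZC3H7B, or 61.8% (53.3 to 69.8%). Over the other protein-coding genes the shares were 43.4% (43.0 to 43.9%) and 29.9% (29.6 to 30.2%). The 3' UTR held 20.6% (13.1 to 30.0%) and 25% (18.2 to 32.9%) of MCM clusters, against 40.9% and 57.2% on the other protein-coding genes. Clusters of 1 gene share its transcript and are not independent, so these intervals cover counting error only. The lengths of coding sequence and 3' UTR were not used, and their part in these shares was not tested.

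Clusters elsewhere on MCM transcripts were few. The 5' UTR held 1 cluster, on MCM5 for ZC3H7A, and 0 of 144 for ZC3H7B, which allows a share of up to 2.53%. Start codons held 1 cluster, on MCM7 for ZC3H7A. Stop codons held 2 clusters for ZC3H7A, both on MCM3, and 4 for ZC3H7B, 1 each on MCM2, MCM3, MCM4 and MCM7. Introns held 0 of 97 clusters for ZC3H7A, which allows up to 3.73%, and 4 of 144 for ZC3H7B, or 2.78% (0.762 to 6.96%), against 6.01% and 6.02% on the other protein-coding genes. Of these 4 intronic clusters 2 lay on MCM10, 1 on MCM3 and 1 on MCM6. A further 3 and 11 MCM clusters had no named region.

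**Figure D3:**
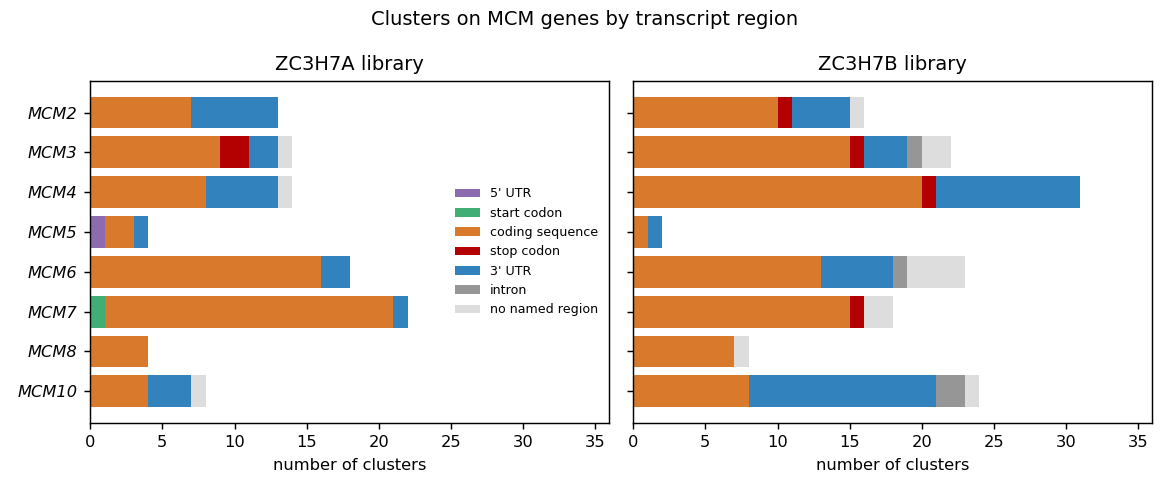
Number of clusters on each MCM gene (horizontal axis) for ZC3H7A (left) and ZC3H7B (right), coloured by transcript region. Coding sequence (orange) held the most clusters on each gene except MCM5 with 1 and 1 and MCM10 with 8 and 13 for ZC3H7B, and 3' UTR clusters (blue) were absent from MCM8 in both libraries.

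Gene by gene, more than 50% of clusters lay in coding sequence for 6 of 8 MCM genes for ZC3H7A, where this held for 39.7% of the 4960 genes with at least 3 clusters. In the ZC3H7B library it held for 6 of the 7 MCM genes with at least 3 clusters, beside 22.5% of 6672 genes. The median MCM gene stood at 60.7% and 64.5%, and the median of all such genes at 42.9% and 25%. Here and below, genes with at least 3 clusters were not limited to protein-coding genes, unlike the pooled shares above. MCM5 had 2 clusters for ZC3H7B, 1 of them coding, and did not enter that count.

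MCM7 and MCM8 were the most coding of the 8 genes in both libraries. MCM7 had 20 of 22 clusters in coding sequence for ZC3H7A, or 90.9% (70.8 to 98.9%), and 15 of 18 for ZC3H7B, or 83.3% (58.6 to 96.4%). Its 3' UTR held 1 of 22 and 0 of 18. MCM8 had 4 of 4 and 7 of 8 clusters in coding sequence, with wide intervals (39.8 to 100% and 47.3 to 99.7%). A lower coding share was found for 91.4% and 94.0% of genes with at least 3 clusters in the case of MCM7, and for 92.2% and 95.4% in the case of MCM8.

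MCM6 differed most between the libraries in where its clusters lay. It had 16 of 18 clusters in coding sequence for ZC3H7A, or 88.9% (65.3 to 98.6%), and 13 of 23 for ZC3H7B, or 56.5% (34.5 to 76.8%), a difference of -32.4 percentage points with intervals that overlap. Its 3' UTR held 2 and 5 clusters, and 4 of its clusters for ZC3H7B had no named region. MCM10 was the least coding of the 8 for ZC3H7B, with 8 of 24 clusters in coding sequence and 13 of 24 in the 3' UTR. In the ZC3H7A library it had 4 of 8 and 3 of 8. MCM10 was thus the only member with more 3' UTR than coding clusters in either library. It was also the member with the highest log2 ratio towards ZC3H7B, and whether cluster position and ratio go together was not tested.

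MCM2, MCM3 and MCM4 had slightly higher coding shares for ZC3H7B. MCM2 had 7 of 13 and 10 of 16 clusters in coding sequence, MCM3 had 9 of 14 and 15 of 22, and MCM4 had 8 of 14 and 20 of 31. The differences were 8.65, 3.90 and 7.37 points, small beside the counting intervals, which for MCM4 ran from 28.9 to 82.3% for ZC3H7A and from 45.4 to 80.8% for ZC3H7B. Over the 7 MCM genes with at least 3 clusters in both libraries the coding share was lower for ZC3H7B for 4, beside 67.8% of 4517 genes. The median difference was -7.58 points for these 7 and -10.0 points for all.

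**Figure D4:**
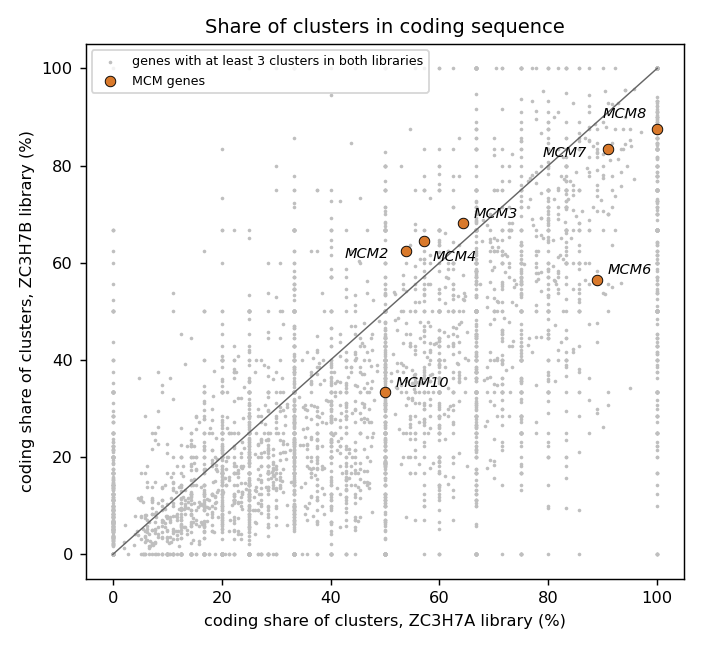
Share of a gene's clusters in coding sequence for ZC3H7A (horizontal axis, %) and ZC3H7B (vertical axis, %), for genes with at least 3 clusters in both (grey) and the 7 MCM genes among them (orange). The line marks equal shares. MCM2, MCM3 and MCM4 lay just above the line, and MCM6 lay 32.4 points below it.

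The MCM7 transcript also carries microRNAs, which are cut from its introns. In the RefSeq annotation of GRCh38.p14 the hairpins of MIR106B, MIR93 and MIR25 lie within MCM7. Their best known mature forms, from RefSeq, are shown because reads from them would count as intronic reads of this host gene or as rows of their own. Capitals mark the seed, bases 2 to 8.
miR-106b-5p: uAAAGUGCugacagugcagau
miR-93-5p: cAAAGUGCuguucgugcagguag
miR-25-3p: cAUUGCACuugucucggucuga
The first 2 share the seed AAAGUGC, and that of miR-25-3p differs. MCM7 had 0 intronic clusters in both libraries, and none of the 3 hairpins had a row in either table, although other microRNAs had 17 rows in the ZC3H7A table and 11 in the ZC3H7B table. Absence of a row means that no cluster was called, and leaves the number of reads unknown. AP4M1, which also overlaps MCM7 in this annotation, and MCM8-AS1, the antisense gene of MCM8, had no row either.

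As a mean over clusters, T-to-C conversion on MCM genes was high but mostly below that of the median gene. The conversion share of a cluster's reads, as a mean over a gene's clusters, ranged from 88.5% on MCM4 to 97.7% on MCM8 for ZC3H7A, with a median of 91.1% over the 8. In the ZC3H7B library it ranged from 85.4% on MCM10 to 100% on MCM5, with a median of 88.3%. The median gene stood at 97.4% and 91.1%. In the ZC3H7A library 1 of 8 MCM genes, MCM8, stood above the median gene, and for ZC3H7B 3 of 8 did, MCM5, MCM6 and MCM8. The median MCM gene had 63.5 and 296 distinct reads, against 13 and 47 for the median gene, and the part of read number in these shares was not tested. MCM5, at 100% for ZC3H7B, had 7 distinct reads there.

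**Figure D5:**
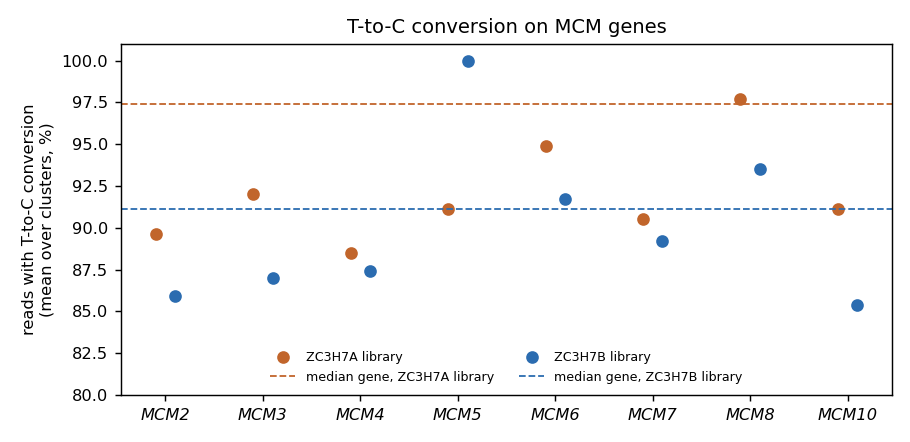
T-to-C conversion share of a cluster's reads, as a mean over the clusters of each MCM gene (vertical axis, %, from 80), for ZC3H7A (orange) and ZC3H7B (blue). Points are 1 library each, and dashed lines are the median gene of each library, at 97.4% and 91.1%. Of the orange points only MCM8 lay above the orange line, and of the blue points MCM5, MCM6 and MCM8 lay above the blue line.

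Mean reads per cluster lay above the median gene except on MCM2 and MCM5 for ZC3H7A and on MCM5 and MCM8 for ZC3H7B. They ranged from 33.0 on MCM5 to 169 on MCM6 for ZC3H7A (median gene 38.6) and from 5 on MCM5 to 39.6 on MCM6 for ZC3H7B (median gene 12.3). MCM6, MCM4 and MCM7 led in both libraries, above 97.5, 91.6 and 88.2% of genes for ZC3H7A and above 93.6, 90.3 and 89.2% for ZC3H7B. Reads per distinct read ranged from 8.25 on MCM2 to 15.4 on MCM6 for ZC3H7A and from 1.43 on MCM5 to 2.11 on MCM3 for ZC3H7B. Over the 8 genes together this was 12.1 and 1.97, beside 12.6 and 1.99 in the whole libraries.

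Partners of the MCM proteins lay slightly above the median gene, and neither was called. MCM9, the partner of MCM8, had 325 reads in 9 clusters and 304 reads in 20 clusters, a log2 ratio of 0.40 (0.17 to 0.63). MCMBP, a binding protein of the MCM complex, had 644 reads in 12 clusters and 666 reads in 28, a log2 ratio of 0.54 (0.38 to 0.70). In coding sequence lay 6 of 9 and 10 of 20 clusters of MCM9, and 6 of 12 and 15 of 28 of MCMBP. MCM3AP and MCMDC2 had no row in either table.

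The other replication genes held no common direction either. Of 73 genes in 8 lists, MCM9 and MCMBP included, 54 could be compared, of which 10 were called higher for ZC3H7A and 8 for ZC3H7B by reads, with a median log2 ratio of 0.21. These counts stand beside the 18.0% and 18.2% of all genes called. With distinct reads 4 and 4 of these genes were called, beside 10.1% and 7.28% of all genes. Among the 11 genes of origin recognition and licensing, 10 were compared, with 2 called higher for ZC3H7A and 1 for ZC3H7B. The former 2 were CDT1 and GMNN, beside 18.0% of all genes called higher for ZC3H7A. CDT1, which brings the MCM ring to origins, had 427 and 67 reads, a log2 ratio of -2.18 (-2.57 to -1.80). GMNN, which encodes the CDT1 inhibitor geminin, had 1303 and 294 reads, a log2 ratio of -1.66 (-1.84 to -1.47). By distinct reads both kept intervals beyond 2-fold, at -2.31 and -1.48. CDC6, the loader that works with CDT1, was the 1 called in the other direction, with 43 and 221 reads and a log2 ratio of 2.85 (2.38 to 3.36). By distinct reads it stood at 1.85 (0.67 to 3.33) and was not called. CDC6, and each gene below that was called and is not among the 3 of its list with the most reads, was named after its values were seen. ORC6, a subunit of the origin recognition complex, had 1627 and 706 reads, a log2 ratio of -0.71.

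Named genes of the GINS complex, which joins the MCM ring in the active helicase, had most of their clusters in the 3' UTR. GINS1 had 1626 and 1814 reads, with 18 of 22 and 18 of 20 clusters in the 3' UTR and 3 and 1 in coding sequence. GINS3 had 333 and 996 reads, was called higher for ZC3H7B at 2.07 (1.89 to 2.26), and had 6 of 8 and 9 of 12 clusters in the 3' UTR. GINS2 had 26 and 51 reads, with 2 of 2 and 7 of 7 clusters in the 3' UTR. Of the 5 genes of CDC45 and GINS, 4 were compared, with 1 called in each direction. The other, CDC45, which activates the ring, had 62 and 5 reads, a log2 ratio of -3.14 (-4.81 to -1.84), and by distinct reads stood at -2.06 (-4.48 to 0.37) and was not called. Whether GINS and MCM genes differ in cluster position was not tested.

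Genes of firing and of the fork were called by reads in equal numbers in both directions, beside 18.0% and 18.2% of all genes. Among 11 compared firing factors 1 was called in each direction, MTBP at -2.02 and CCNE2, which encodes cyclin E2, at 2.22. RIF1, a regulator of origin timing, stood at 0.51, CCNA2, which encodes cyclin A2, at 0.03, and CDC7, the kinase that phosphorylates the MCM ring, at -0.84. Among 11 fork, clamp and clamp loader genes 2 were called in each direction, PCNA and RFC4 for ZC3H7A and RFC1 at 2.59 and RFC5 at 1.74 for ZC3H7B. By distinct reads RFC5 stood at 1.49 (0.89 to 2.16), and it and RFC4 were not called. PCNA, the sliding clamp, had 2589 and 547 reads, a log2 ratio of -1.75 (-1.89 to -1.62). Whether reads of near-identical copies were counted on PCNA was not tested. RFC4, a clamp loader subunit, stood at -2.98 by reads and at -1.25 (-1.81 to -0.68) by distinct reads, with 2949 reads made of 43 distinct reads for ZC3H7A. RFC3, another clamp loader subunit, stood at 0.18, with 14 of 24 and 21 of 42 clusters in introns.

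Among 7 polymerase and primase genes 3 were called higher for ZC3H7A and 2 for ZC3H7B by reads, beside 18.0% and 18.2% of all genes. PRIM2, the large primase subunit, stood at -1.64, POLA2 at -2.00 and POLD2 at -1.66. POLD3, a subunit of polymerase delta, stood at 1.98 and POLA1, the catalytic subunit of polymerase alpha, at 2.13. POLE3, a subunit of polymerase epsilon, stood at 0.56 and was not called. By distinct reads POLD3 alone was called, at 2.07 (1.35 to 2.90), and 0 were called higher for ZC3H7A. Of the 3 RPA genes compared, which encode the single-strand binding complex, RPA3 was called higher for ZC3H7A at -1.61 by reads and not by distinct reads, at -1.52 (-2.24 to -0.79), and RPA1 and RPA2 stood at -0.01 and -0.17. Of 6 checkpoint genes compared 0 were called higher for ZC3H7A and 1 for ZC3H7B, CLSPN, which encodes claspin, at 2.47. By distinct reads CLSPN stood at 1.79 (0.82 to 2.95) and was not called. The checkpoint kinase gene CHEK1 stood at 0.38, RAD1 at 0.23 and TIPIN, a fork protection factor, at -0.94. Over all 8 lists coding sequence held 56.1% (51.2 to 60.9%) of pooled clusters for ZC3H7A and 45.7% (42.3 to 49.1%) for ZC3H7B. These pooled shares lay between those of the MCM genes and the other protein-coding genes. Gene by gene this order did not hold for ZC3H7A. Over listed genes with at least 3 clusters the median coding share was 65.2% for ZC3H7A (42 genes) and 50.0% for ZC3H7B (54 genes). The median MCM gene stood at 60.7% and 64.5%.

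The 5 genes most like the average MCM gene, members left out, came from other processes. Whether replication genes lie nearer to it than other genes do was not tested. Likeness was the distance over 4 values in SD units, log2 RPM and coding share in each library, from the mean of the 7 MCM genes with at least 3 clusters in both, among 4510 other genes. The 5 nearest were GART, an enzyme of purine synthesis, at 0.303, DST, a cytoskeletal linker, at 0.314, IPO5, a nuclear import receptor, at 0.331, DDX42, an RNA helicase, at 0.360, and CUL4B, a ubiquitin ligase scaffold, at 0.367. The MCM genes lay between 0.403 (MCM3) and 2.53 (MCM8) from their own mean. GART had 1047 and 570 reads, and coding sequence held 8 of its 11 clusters and 15 of its 23.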

How the data were processed

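PAR-CLIP clusters were analysed in 2 libraries of HEK293 cells, 1 per tagged protein, grouped by sample title. The submitters' processing notes name cutadapt, Bowtie and STAR 2.5.2a with genome build hg19. For the cluster caller, its thresholds and strand use, the sources used here state nothing. Libraries were read as 50 bp single ends, and no molecular identifier is described. The authors deposited 1 table per library with counts per gene, which per the file headers are clusters, reads and distinct reads summed over clusters, and clusters by region. T-to-C conversion was deposited as a fraction, the median over a gene's clusters. The deposited score used is the sum of this conversion over clusters, divided here by the number of clusters, and a median of reads per cluster was used as deposited. Rows of repeats, tRNAs and other classes were left out (282 with 1.57% of reads for ZC3H7A, 407 with 1.51% for ZC3H7B). The exon column was read as coding sequence, since in rows with 1 cluster it held that cluster exactly when the class was coding (730 of 730 and 387 of 387).

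Log2 ratios were scaled to the median of 7168 genes listed in both tables with at least 20 reads summed. Intervals are conditional binomial for ratios and Clopper-Pearson for shares, both exact at 95%. For mean reads per cluster the interval of the read ratio was shifted by the ratio of clusters, taken as fixed. Coding shares of genes used at least 3 clusters. Ratios and calls were first tested on simulated data with counting error only, without PCR copies or replicate spread. That test cannot show how the intervals and calls behave in these libraries. Members and lists were chosen with earlier results of these data known. Named were all members, MCM-related genes with a row, the 3 genes with the most reads of each list, the tagged genes and the 5 nearest genes. Alternatives were distinct reads, mean reads per cluster, clusters, library totals with and without the tagged genes, TMM factors, other read minimums, missing genes at 0, calls by the ratio itself, other region rules and the deposited median of conversion. Leaving out MCM5 was added after seeing the data. Symbols and protein-coding status came from RefSeq GRCh38.p14, which matched all 8 members. Its coordinates served only to find genes that overlap a member within that annotation. Software was Python 3.11.15, pandas 2.3.3, numpy 2.4.6, scipy 1.17.1, matplotlib 3.10.9 and, for TMM factors only, edgeR 4.0.16 in R 4.3.3.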

Additional observations from a re-analysis of the deposited data

How the results depend on the processing

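MCM5 lay below 0 under all 10 settings of count, scaling and filter (-3.27 to -1.25), as did MCM6 (-1.28 to -0.57). MCM10 lay above 0 under all 10 (0.29 to 1.28). Scalings and filters only shift the read ratios, by at most 0.16, so they could not change the signs of MCM5, MCM6 and MCM10. By clusters their intervals included 0, at -5.39 to 0.88 for MCM5, -1.53 to 0.40 for MCM6 and -0.54 to 2.02 for MCM10. MCM7 lay below 0 except by mean reads per cluster, where it stood at 0.00, and MCM8 except by clusters, at 0.07. MCM2 (-0.63 to 0.81), MCM3 (-0.27 to 0.62) and MCM4 (-0.14 to 0.28) had both signs. The median of the MCM genes, -0.36, was -0.07 by mean reads per cluster and 0.03 without MCM5. The count of MCM genes higher for ZC3H7A, 3, was 0 by mean reads per cluster and by clusters and 1 with library totals. Over all genes 1293 were called higher for ZC3H7A and 1306 for ZC3H7B. Distinct reads gave 724 and 522 calls, mean reads per cluster gave 333 and 443, numbers of clusters gave 16 and 23, and keeping missing genes at 0 gave 2045 and 2087. With missing genes at 0 more genes were compared, and the cause of the other differences was not tested. The median T-to-C share of MCM genes for ZC3H7A, 91.1%, was 99.5% by the deposited median over clusters, where the median gene stood at 100%. For ZC3H7B the deposited median gave 89.0% for the MCM genes and 94.0% for the median gene. The distance from the median gene for ZC3H7A was thus small by this measure. Coding shares of MCM clusters stayed between 72.2 and 75.3% for ZC3H7A and between 61.8 and 66.9% for ZC3H7B. No paired analysis was possible because each protein has 1 library, and for the same reason no replicate could be left out. MCM5 and MCM8, with 13 and 14 distinct reads for ZC3H7A, are limited most by depth.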

Other observations

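The deposited tables also give each gene a single class, and this class often did not follow where most clusters lay. MCM2, MCM4 and MCM8 were classed as coding for both proteins, and coding sequence held the most of their clusters. MCM3 was classed as 3' UTR for both, with most clusters in coding sequence. MCM6 was classed as 3' UTR in the ZC3H7A table with 16 of 18 clusters in coding sequence. MCM7 was classed as 3' UTR there with 20 of 22, and as stop codon in the ZC3H7B table with 15 of 18 in coding sequence. Over genes with at least 3 clusters, a class that names 1 region and 1 region with the most clusters, class and region were the same for 2210 of 4272 genes (51.7%) in the ZC3H7A table and 3294 of 5882 (56.0%) in the ZC3H7B table. The numbers of clusters by region, and not this class, were used for the MCM genes.

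Of the 62 replication genes with a row, 8 (12.9%) had one in a single table, as did 2927 of 10145 genes in all (28.9%). GINS4 (64 reads), DBF4B (60 reads), TIMELESS (27 reads) and POLE, POLE4 and RAD9A (5 reads each) had one in the ZC3H7B table, and RECQL4 (62 reads) and POLD1 (30 reads) in the ZC3H7A table. RECQL4 and TIMELESS act with the MCM helicase at the start and at the fork. The MCM genes were chosen among genes with a row, so their presence in both is not a result to set beside these shares.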
